A study of Rattus norvegicus with 18 samples.

Results

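In the visceral white adipose tissue (vWAT) of spontaneously hypertensive rats, 43 of 32883 genes were lower in each of 6 rats that drank trimethylamine N-oxide (TMAO) than in each of 6 rats that drank plain water. The genes were chosen by that separation itself. Reads were scaled to counts per 1000000 counts of its library (CPM), the highest SHR-TMAO value had to lie below the lowest SHR-Water value, and the mean CPM of these 12 rats had to be at least 1. Genes of chromosomes MT and 20 were left out, as were genes for which all hypertensive rats lay on one side of all normotensive rats. The 6 Wistar-Kyoto rats (WKY) therefore chose no gene by their level, other than through this last step, and where they lay is described for each gene.

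The study set 3 groups of 6 male rats against each other. SHR-Water and SHR-TMAO were spontaneously hypertensive rats (SHR), 7 to 8 weeks old at the start, which drank tap water or water with 1 g/L TMAO for 22 weeks. WKY is the normotensive strain commonly kept as the control of SHR, and its rats drank water without TMAO, so that strain and blood pressure cannot be told apart in a comparison with WKY. Rats were housed 3 to a cage and the labels give no cage, so a cage and a treatment cannot be told apart here.

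TMAO arises when gut bacteria release trimethylamine from choline and carnitine in food and the liver oxidises it. It circulates in blood and is cleared by the kidney. Visceral white adipose tissue lies around the abdominal organs, stores triglyceride and releases hormones and fatty acids, and besides adipocytes it holds vessel, immune and stromal cells. In RNA of whole tissue, fewer cells of a type and less RNA per cell cannot be told apart.

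The deposited table names its genes by Ensembl identifier and gives no symbol, so the 43 genes are described by their position, structure and level, and are numbered from 1 to 43 by the ratio of their mean CPM in SHR-TMAO to that in SHR-Water, smallest first. Coordinates are those of the table, on the rat build Rnor_6.0. What the genes encode was not analysed here. Libraries held between 10774133 and 18874161 counts in genes. Mitochondrial genes took 21.4% ± 5.43 (SD, n = 6) of the counts in SHR-Water, 16.8% ± 3.52 in SHR-TMAO and 14.9% ± 5.12 in WKY, and the difference between the SHR groups did not pass an exact two-sided permutation test (p = 0.128, adjusted p = 0.128 over 2 library measures). Nothing but the sample numbers separates the rats of a group in the labels.

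The 43 genes were those of 47 with groups that did not overlap, which were 0.38% of the 12363 genes at the level limit. Under the same limits, 35 genes were higher in every SHR-TMAO rat. Since the separation is what chose the genes, their SHR values below are a description and carry no test. The mean CPM in SHR-TMAO was 63.4% of that in SHR-Water for the median gene and ranged from 20% for gene 1 to 80.4% for gene 43. It was under 25% for 1 gene, under 50% for 12 genes and under 75% for 38 genes. The median log2 ratio was -0.66 for the 43 genes and -0.12 for all genes at the level limit, 61.9% of which had a lower mean in SHR-TMAO.

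**Figure D1:**
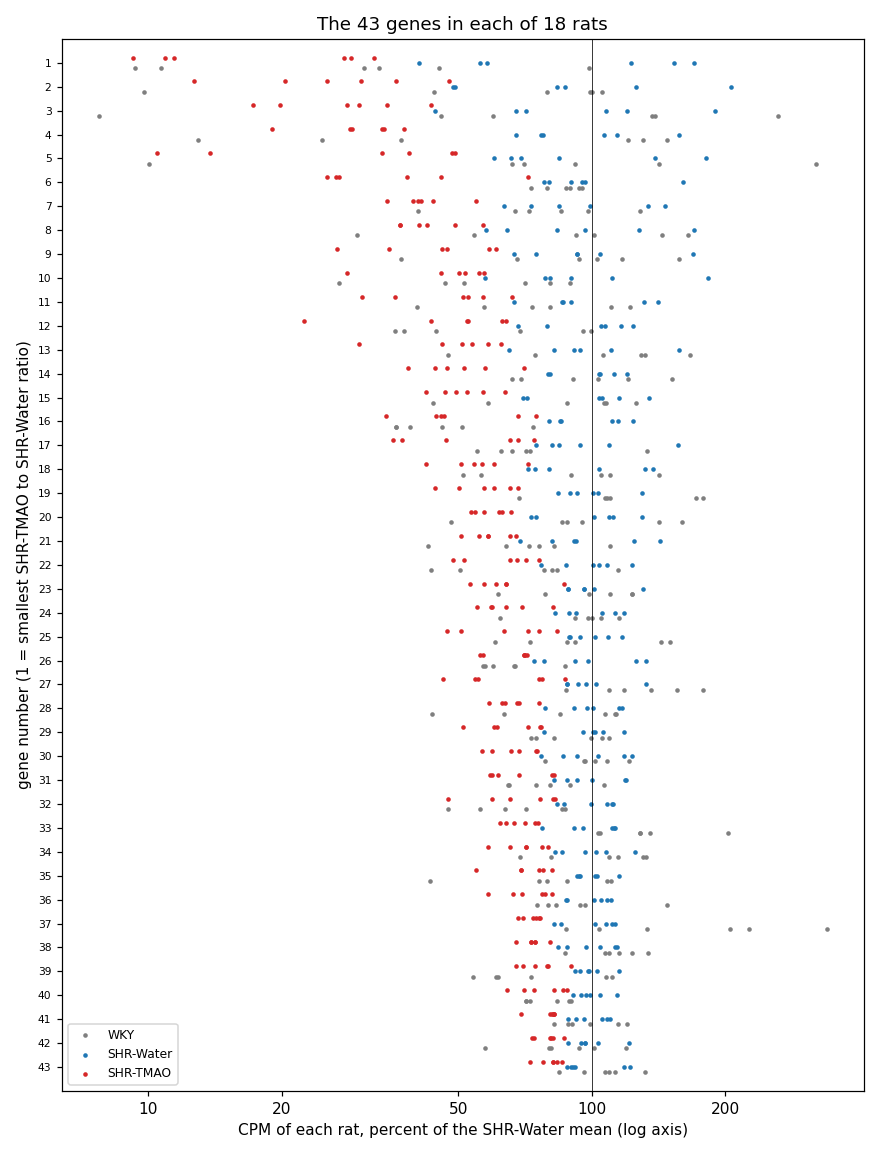
CPM of each rat (points), as a percent of the SHR-Water mean of that gene on a log axis, for the 43 genes in order of their SHR-TMAO to SHR-Water ratio. Red points (SHR-TMAO) lie left of all blue points (SHR-Water) by the choice of genes, with a median of 63.4% of the SHR-Water mean, and grey points (WKY) spread over both.

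Gene 1 (ENSRNOG00000055915, chr5:144448792-144479306, minus strand) had the smallest ratio. Its CPM in SHR-Water ran from 1.33 over a median of 2.96 to 5.56, in SHR-TMAO from 0.302 over 0.640 to 1.06, and in WKY from 0.306 over 1.04 to 3.24. Of the WKY rats, 2 reached into the lower part of the SHR-Water range and 3 lay at or below the highest SHR-TMAO rat. The WKY mean was 1.24 ± 1.08, or 38.0% of the SHR-Water mean of 3.28 ± 1.82. It lay nearer the SHR-TMAO mean of 0.657 ± 0.347. Genes 2, 5 and 7 were also low in level. Gene 2 (chr18:41333551-41389510), with the same 19 exon blocks as gene 1, ran from 2.32 to 9.84 in SHR-Water (median 4.07) and from 0.605 to 2.28 in SHR-TMAO (median 1.32). Its WKY values ran from 0.465 to 5.02 with a median of 4.26, so that most WKY rats lay with SHR-Water and the lowest lay below every hypertensive rat. Gene 5 (chr1:88978344-88989552) was the gene of lowest mean level, at 1.15 CPM, and rested on as few as 3 counts in a rat. It ran from 1.04 to 3.15 in SHR-Water, from 0.181 to 0.854 in SHR-TMAO and from 0.174 to 5.57 in WKY, which held both the lowest and the highest rat of all. Gene 7 (chr7:15159422-15163866), of 3 exon blocks, ran from 2.14 to 4.95 in SHR-Water, from 1.17 to 1.85 in SHR-TMAO and from 1.37 to 4.35 in WKY. Its WKY mean was 82.0% of that of SHR-Water.

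Genes 3 and 4 were the only ones of a single exon block, with 79 and 67 annotated bases, and each lies inside a longer gene of the same strand on chromosome 10. Gene 3 (chr10:13161510-13161588) ran from 2.67 over 5.39 to 11.5 CPM in SHR-Water and from 1.04 over 1.75 to 2.62 in SHR-TMAO. In WKY it ran from 0.465 over 5.91 to 15.9, the widest spread of the 3 groups. The gene around it (chr10:13145099-13162343) shares no exon base with it and was at 210.8 ± 123 CPM in SHR-Water and 93.3 ± 31.4 in SHR-TMAO, with ranges that overlapped. Gene 4 (chr10:94982051-94982117) had the widest margin of the 43 genes, its lowest SHR-Water value of 1.27 being 1.78 times its highest SHR-TMAO value of 0.712. Its WKY rats lay apart, with 3 rats from 2.28 to 2.78 and 3 rats from 0.244 to 0.702. Here the surrounding gene (chr10:94980928-94988461), with 1 shared exon base, was at 245 ± 97.2 CPM in SHR-Water and 213 ± 53.8 in SHR-TMAO. Whether reads of unspliced RNA of the longer genes reached the short ones was not tested.

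Gene 6 (ENSRNOG00000011427, chr15:52241801-52261276, plus strand) joined a low ratio, 39.1%, to a high level. Its 6 SHR-Water values were 103, 86.7, 174, 84.6, 97.3 and 105 CPM, and its 6 SHR-TMAO values were 49.5, 78.0, 41.4, 27.4, 28.7 and 29.1. All WKY values, from 79.1 over 95.7 to 103, lay above every SHR-TMAO rat and inside or just under the SHR-Water range. Against WKY, the edgeR log2 fold change of gene 6 was -1.08 ± 0.25 (SE) in SHR-TMAO. The SE of edgeR fold changes was worked back here from the fold change and the F statistic of the test.

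A further set of genes had levels between those of genes 1 and 6. Gene 8 (chr9:81844138-81868086) ran from 14.1 to 41.8 CPM in SHR-Water and from 9.06 to 13.9 in SHR-TMAO, while WKY spread from 7.27 to 40.6. Gene 13 (chr10:31146107-31240582) ran from 26.0 to 62.6 in SHR-Water and from 11.9 to 24.9 in SHR-TMAO, with a WKY range of 18.8 to 66.4. Both thus had 1 or more WKY rats as low as SHR-TMAO and others as high as SHR-Water. Genes 9 (chr1:177048655-177173995), 10 (chr11:42945084-43005097), 11 (chr9:13446896-13490669) and 12 (chr9:100450586-100479868) had ratios from 45.7% to 49.6%. In SHR-Water their means were 4.87, 10.8, 7.04 and 3.08 CPM, in SHR-TMAO 2.22, 5.21, 3.44 and 1.53, and in WKY 4.67, 6.59, 5.67 and 1.96. WKY was thus close to SHR-Water for gene 9 and nearer SHR-TMAO for genes 10 and 12.

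Genes 14 (chr5:143111074-143120165), 15 (chr9:103117506-103207190), 18 (chr10:48240127-48542292), 21 (chr10:45169409-45185411) and 22 (chr10:105573752-105600913) had ratios from 51.5% to 63.4%. In SHR-Water their means were 8.31, 1.59, 2.38, 4.90 and 28.3 CPM, and in SHR-TMAO 4.28, 0.826, 1.33, 2.91 and 17.9. Their WKY means were 100%, 88.4%, 92.3%, 74.5% and 75.1% of those of SHR-Water, with the WKY rats of genes 21 and 22 spread from below the lowest SHR-TMAO rat into the SHR-Water range. Gene 19 (chr9:94745217-94850771) had a ratio of 57.6% and a margin of 1.23. It ran from 5.40 over 6.23 to 8.37 in SHR-Water, from 2.86 over 3.78 to 4.40 in SHR-TMAO and from 4.42 over 7.02 to 11.5 in WKY, so that each WKY rat lay above each SHR-TMAO rat. Gene 23 (chr7:12742433-12762341) ran from 15.6 to 23.1 in SHR-Water, from 9.38 to 15.3 in SHR-TMAO and from 10.9 to 21.8 in WKY. It lies inside a gene of the same strand (chr7:12708015-12793711) that shares no exon base with it. That gene was at 154 ± 18.9 CPM in SHR-Water and 112 ± 24.9 in SHR-TMAO.

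The other genes of highest level, gene 16 apart, had SHR-TMAO means of 54.6% or more of those of SHR-Water. Gene 41 (chr12:13715843-13718841, 7 exon blocks) was by far the most abundant, with 1174, 1336 and 1454 CPM as lowest, median and highest value in SHR-Water, 918, 1079 and 1090 in SHR-TMAO and 1093, 1254 and 1593 in WKY. Its SHR-TMAO mean was 79.4% of that of SHR-Water, and all 6 WKY rats lay above all SHR-TMAO rats. Gene 29 (chr8:66296883-66342176) ran from 116 to 175 in SHR-Water, from 76.0 to 114 in SHR-TMAO and from 108 to 162 in WKY. Gene 24 (chr1:221062147-221084129) ran from 78.3 to 112, from 52.4 to 77.4 and from 59.0 to 109 in the same order. In both, some WKY rats lay within the SHR-TMAO range and most lay above it. Gene 17 (chr19:20147037-20406003) ran from 58.0 to 122 in SHR-Water and from 27.7 to 57.7 in SHR-TMAO, and gene 20 (chr8:22822412-22874645), with 50 exon blocks, from 34.2 to 60.9 and from 25.1 to 30.8. Gene 25 (chr3:7109920-7130548) ran from 47.0 to 62.0 and from 25 to 44.2. Their WKY means were 76.7%, 103% and 101% of the SHR-Water means. Gene 38 (chr9:113534326-113573307) ran from 37 to 50.4 in SHR-Water, from 29.7 to 35.5 in SHR-TMAO and from 38.4 to 59.2 in WKY, where it did not overlap SHR-TMAO.

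WKY lay differently from gene to gene. The WKY mean lay between the SHR means for 26 of the 43 genes, above both for 14 and below both for 3. Over all genes at the level limit the shares were 34.8%, 33.1% and 32.1%. The 43 genes were chosen for SHR groups that lie apart, which leaves more room between the SHR means than at large. The rule also left out some genes by their WKY values. The shares are thus no like comparison and are given as a description. With the trend with exon length described further on removed from each library, the counts between, above and below were 18, 21 and 4. As CPM, the WKY mean was nearer the SHR-Water mean for 30 genes and nearer the SHR-TMAO mean for 13. Of the 258 WKY values, 162 were at or above the lowest SHR-Water value of their gene, 85 were at or below the highest SHR-TMAO value and 11 lay in the gap. The median WKY mean was 90.6% of that of SHR-Water and 152.8% of that of SHR-TMAO.

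**Figure D2:**
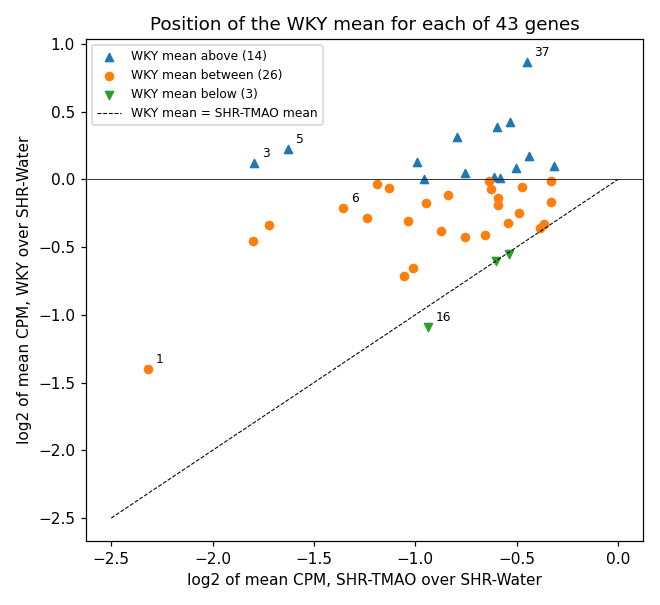
Log2 ratio of the WKY mean to the SHR-Water mean (vertical axis) against that of the SHR-TMAO mean to the SHR-Water mean (horizontal axis), 1 point per gene, coloured by the place of the WKY mean. The 14 genes above the solid line have WKY above both SHR means and the 3 genes under the dashed line have it below both, with genes 37 and 16 farthest out on either side.

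The genes with WKY above SHR-Water were led by gene 37 (chr7:123259761-123280612). Its WKY values of 124, 73.1, 186, 48.0, 57.0 and 112 CPM all lay above the SHR-TMAO range of 37.4 to 41.8, and 4 of them above the SHR-Water range of 45.0 to 61.8. The WKY mean was 182% of that of SHR-Water, against 73.1% for SHR-TMAO. Genes 33 (chr13:48031410-48056394), 27 (chr10:104368247-104403724) and 19 followed with 134%, 131% and 124%. In all of these the 6 WKY rats lay above the 6 SHR-TMAO rats, as they did for genes 6, 30, 38 and 41. There were thus 8 such genes of 43, where 2.63% of all genes at the level limit had SHR-TMAO below every WKY rat, but the rule that chose the genes used the same SHR-TMAO rats, so the share is given as a description.

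Only genes 16, 26 and 32 had a WKY mean below that of SHR-TMAO. Gene 16 (chr2:23770721-23852021, 3 exon blocks) stood at 57.3, 79.6, 88.9, 81.9, 60.8 and 61.2 CPM in SHR-Water, at 53.6, 48.7, 32.7, 24.5, 31.9 and 33.2 in SHR-TMAO and at 27.9, 52.8, 25.9, 36.5, 32.9 and 25.8 in WKY. Every rat of SHR-TMAO and of WKY was thus below every rat of SHR-Water, and the ranges of SHR-TMAO and WKY overlapped almost fully. For genes 26 (chr18:15883182-15898821) and 32 (chr10:74379226-74388787) the WKY and SHR-TMAO means were closer together than the rats of either group, at 5.47 ± 0.933 and 5.48 ± 0.613 CPM for gene 26 and 6.37 ± 1.48 and 6.42 ± 1.30 for gene 32. Gene 40 (chr19:10340307-10360310), with WKY from 7.70 to 9.71 and SHR-Water from 9.85 to 12.4, was the only other gene with all WKY rats below all SHR-Water rats. These 2 genes stand beside 1.3% of all genes at the level limit with SHR-Water above every WKY rat. The reverse, with SHR-Water below every WKY rat (2.56% of genes) or SHR-TMAO above every WKY rat (1.56%), cannot occur among the 43, since the rule leaves such genes out.

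The same genes were read from edgeR's quasi-likelihood fits over all genes, with a gene called when its Benjamini-Hochberg adjusted p was under 0.05 and its log2 fold change, in size, 1 or more. Between SHR-TMAO and SHR-Water, 0 of 12852 genes were called (0% in either direction). The lowest adjusted p was 0.0834, 3212 genes had an unadjusted p under 0.05, and DESeq2 called 403 of 13523 genes, of which 294 (2.17%) were lower, with 9 of the 43, and 109 (0.806%) were higher, with none of them. The median log2 fold change in edgeR was -0.53 for the 43 genes and -0.01 for all genes. Between SHR-TMAO and WKY, 278 genes (2.17%) were called lower, with genes 6, 8, 13, 19 and 37 among them, and 186 (1.45%) higher, with none of the 43. Their log2 fold changes were between -1.27 ± 0.27 (SE) for gene 37 and -1.04 ± 0.25 for gene 13. Between SHR-Water and WKY, 168 genes (1.29%) were called higher, with gene 16 as the only one of the 43, at a log2 fold change of 1.03 ± 0.16, and 277 (2.13%) were called lower, with none of the 43. DESeq2 called 9 of the 43 lower in SHR-TMAO than in WKY (3.29% of genes tested) and none higher (1.93%). Between SHR-Water and WKY it called 1 higher (2.32%) and none lower (3.21%). Both WKY contrasts use SHR rats that chose the genes, so these calls are no independent support. The contrast of SHR-TMAO with SHR-Water uses the very values that chose the 43 genes. Its calls of the 43, by DESeq2 or with rats left out, were favoured by the rule and are a description only. The 43 genes had a median log2 fold change of -0.56 between SHR-TMAO and WKY and of 0.08 between SHR-Water and WKY, the comparisons sharing their WKY rats. The count of 0 between the SHR groups became 685 of 13025 genes when SHR-Water replicate 1 was left out, with 3.88% of genes and 9 of the 43 called lower. It became 442 of 13017 when SHR-TMAO replicate 1 was left out, with 2.24% and 10 of the 43 called lower.

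The WKY calls of single genes also moved with single rats. Of the 5 genes called lower in SHR-TMAO than in WKY, gene 6 alone was called without WKY replicate 3, beside 1.57% of all genes called lower. Gene 37 was called in each of the other fits with 1 rat left out. Without WKY replicate 4, 9 of the 43 were called lower, beside 3.29% of all genes. Without SHR-TMAO replicate 3, 4, 5 or 6 there were 2, 3, 2 and 3, beside 1.82%, 1.76%, 1.86% and 1.67% of all genes called lower. Gene 16 was no longer called between SHR-Water and WKY without WKY replicate 1, 3 or 6 or without SHR-Water replicate 3. In these fits 0.99%, 1.02%, 1.09% and 1.1% of all genes were called higher. With exon length as an offset (its trend across libraries is given further on), gene 37 alone of the 43 was called in SHR-TMAO against WKY, where 2.03% of all genes were lower and 1.53% higher. In SHR-Water against WKY none of the 43 was called with this offset, where 2.23% of all genes were lower and 1.27% higher.

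The margins were narrow. The lowest SHR-Water value was a median of 1.03 times the highest SHR-TMAO value, it was under 1.1 times for 35 genes, and it was at least 1.2 times for genes 4, 1, 19 and 5. Genes 31 (chr10:43554046-43599232), 10 and 18 lay just inside, gene 31 with 11.4275 against 11.4252 CPM. The 3 genes just outside had ratios of 0.998, 0.998 and 0.996. At the level limit, genes 5, 15 and 4 lay just inside, with mean CPM of 1.15, 1.21 and 1.23, and 3 genes that met the separation lay just outside at 0.957, 0.952 and 0.949. The lowest SHR-Water value belonged to SHR-Water replicate 1 for 21 genes and to replicate 5 for 13, and the highest SHR-TMAO value to SHR-TMAO replicate 1 for 16 genes and replicate 5 for 10. The 43 genes became 279 or 274 when SHR-Water replicate 1 or SHR-TMAO replicate 1 was left out, and 93 or 75 when replicate 5 of either group was.

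Within a group the 43 genes varied less than genes at large where the rule acts. The median coefficient of variation in SHR-Water was 16.7% and that in SHR-TMAO 16.1%, against 27.0% and 22.1% over all genes at the level limit, and a rule that asks for groups without overlap picks genes of low spread. In WKY, where it did not act in this way, the median was 32.3% against 26.4%. WKY replicate 4 had the lowest values, with 29 of the 43 genes at or below the highest SHR-TMAO value and 9 at or above the lowest SHR-Water value. WKY replicate 2 was the reverse, with 5 and 37. For the other WKY rats 8 to 18 genes lay at or below the highest SHR-TMAO value.

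The genes were long. Their summed exon length had a median of 3726 bases (quartiles 2338 and 4805), against 2349 (1507 and 3633) for all genes at the level limit, and 20 of the 43 (46.5%) had at least 4000 bases, against 20.6%. Gene 18 was the longest at 7438 bases, with genes 23 and 8 next at 7387 and 7317. The median number of exon blocks was 16 against 9. Genes higher in every SHR-TMAO rat had a median exon length of 1026 bases. Levels were much like those of other genes, with a median mean CPM of 12 against 16.5 and 11, 13, 13 and 6 genes at 1 to 5, 5 to 20, 20 to 50 and above.

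**Figure D3:**
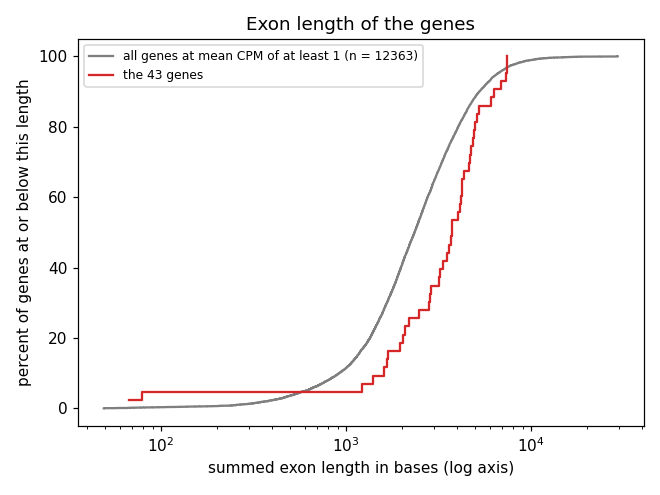
Cumulative percent of genes (vertical axis) by summed exon length in bases (log axis) for the 43 genes (red) and all 12363 genes at the level limit (grey). The red line runs to the right of the grey line above the 2 single-block genes, with a median of 3726 against 2349 bases.

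A trend with exon length also ran through the libraries as a whole. In each library, the Spearman rho across genes between exon length and the deviation of a gene from its mean over all rats was taken. This rho was 0.197 ± 0.303 (SD, n = 6) in SHR-Water, -0.175 ± 0.179 in SHR-TMAO and -0.0693 ± 0.231 in WKY. The difference between SHR-TMAO and SHR-Water was -0.372 (exact two-sided permutation test, p = 0.0390, adjusted p = 0.0779 over the 2 library measures). SHR-Water replicate 1 had the lowest rho of its group, -0.233, and SHR-TMAO replicate 1 the highest of its group, 0.116. These are the rats that most often set the limits of the rule. Replicate 5, the next most often, had a rho of 0.067 in SHR-Water and -0.268 in SHR-TMAO. SHR-Water replicates 1 and 5 also had the highest mitochondrial shares of their group, 28.5% and 27.6%, where the others ran from 15.5% to 20.9%. In SHR-TMAO, replicates 1 and 5 had 20.3% and 16.4%, in a range of 11.1% to 20.8%. What made these rats set the limits was not tested. WKY replicate 4, low in most of the 43 genes, had a rho of -0.426 and WKY replicate 2 one of 0.282. The values of the 43 genes with this trend removed follow.

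**Figure D4:**
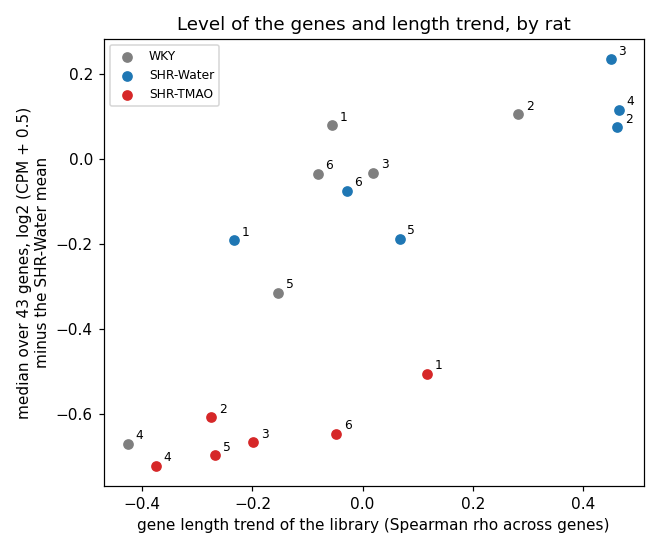
Median over the 43 genes of log2(CPM + 0.5) minus the SHR-Water mean (vertical axis) against the length trend of the library (horizontal axis, Spearman rho across genes), 1 point per rat with its replicate number. SHR-TMAO rats lie lowest by the choice of genes, and WKY replicate 4, at a rho of -0.426, lies among them at -0.67.

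With a smooth curve of exon length taken out of each library, 13 of the 43 genes still had every SHR-TMAO rat below every SHR-Water rat, and 34 genes of the table met the rule. The 13 were genes 1, 2, 3, 4, 7, 10, 11, 15, 16, 30, 34, 36 and 41. The per-rat median over the 43 genes, as log2(CPM + 0.5) minus the SHR-Water mean, moved from -0.64 ± 0.08 to -0.42 ± 0.09 in SHR-TMAO and from -0.14 ± 0.30 to 0.00 ± 0.15 in WKY. The genes were chosen for being low in these same SHR-TMAO rats, so the SHR-TMAO values with the trend removed are a description too. Of these 13, genes 34 (chr7:130404832-130408187), 30 (chr5:154598758-154634686) and 36 (chr1:199664173-199670961) have 1679, 1222 and 1963 exon bases. All 3 lie below the median of 3726 bases of the 43 genes. Gene 34 shares 368 exon bases with a gene of the same strand and 278 with a gene of the other strand. How reads over the shared bases entered its count was not tested.

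**Figure D5:**
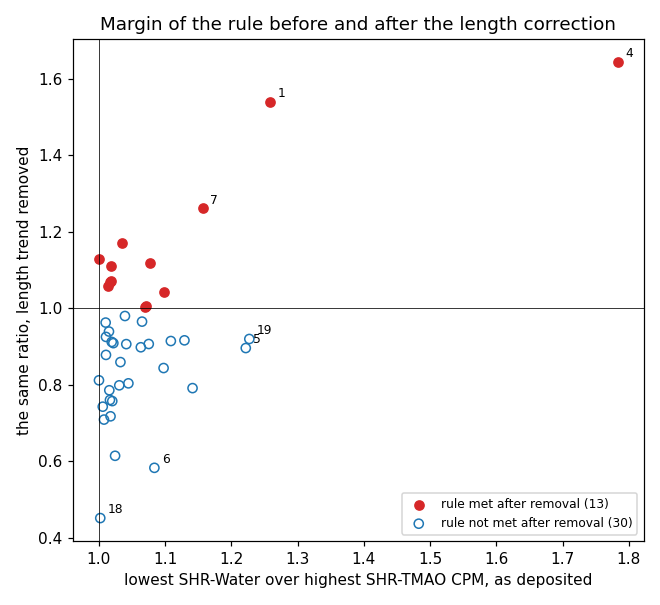
Ratio of the lowest SHR-Water to the highest SHR-TMAO value for each of the 43 genes, as CPM (horizontal axis) and with the length trend removed (vertical axis). The 13 filled points stay above 1 on both axes, with genes 4 and 1 highest, and gene 6 falls from 1.08 to 0.58.

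The column total was set beside 4 other scalings, and 9 genes met the rule in each of them. These were genes 1, 2, 3, 4, 7, 10, 11, 16 and 34. Several of them rest on few counts, with lowest SHR counts of 5, 9, 16, 6 and 18 for genes 1, 2, 3, 4 and 7. Genes 3 and 4 have only 79 and 67 exon bases. The scalings were trimmed mean of M-values (TMM) library sizes, DESeq2 size factors, totals without mitochondrial genes and the removal of the length trend. Another 16 genes met it in 3 of them, 4 genes in 2, 13 genes in 1, and gene 23 in none. Gene 6 met it only with totals without mitochondrial genes.

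The genes were scattered over the genome, with none within 1000000 bases of another. Chromosome 10 held 9 of them (20.9%, against 8.67% of all genes at the level limit) and chromosome 9 held 6 (14.0% against 3.86%), while chromosomes 1, 5 and 7 held 4 each. For each, the nearest gene on either side was taken by midpoint among genes at the level limit outside the 43, genes that overlap it included. These, 86 in all, were lower in the SHR-TMAO mean in 62.8% of cases, against 61.9% of all genes at the level limit. Of the 43, 8 overlapped the span of a gene on the same strand and 3 that of a gene on the other strand. Strand-specific counting, as the study's counting command states, separates the latter.

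In the 6 WKY rats, whose level chose none of them beyond the exclusion, the 43 genes moved together. The median Spearman rho over the 903 pairs was 0.37, against 0.03 between genes at the level limit at large. Within the SHR groups, where the rule acts, it was 0.43 for SHR-Water and 0.09 for SHR-TMAO. The pairs share libraries, and 40 of the 43 genes had a positive rho with the length trend of the library in WKY (median 0.60), against 64.5% of all genes (median 0.20). Genes at large were not matched to the 43 by exon length, and the part of the length trend in this relation was not tested.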

How the data were processed

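Total RNA of vWAT was sequenced from 18 rats. The authors made libraries with a SMART kit and trimmed reads with cutadapt 2.5, aligned them to Rnor_6.0 with HISAT2 2.1.0 and counted them with featureCounts 1.6.3 by strand over exons of Ensembl release 96 genes, per the submitters' processing notes and the file header. The deposited values are raw counts per gene, with 18 columns matched to the samples by title and 0 columns of other samples.

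CPM is the count divided by the column total. The rule gave 43 genes, chosen, like the lists and tests, with earlier results of these data known. Values by gene, as ranges or as means, are given for the 25 genes of smallest ratio, the 10 of highest mean CPM and the 5 of widest margin. The 3 just inside and outside each limit are given too. Each pair of groups was fitted alone with edgeR 4.0.16 (R 4.3.3, TMM, filterByExpr, quasi-likelihood test, Benjamini-Hochberg adjustment, all 43 genes passing the filter). The scripts were tested on simulated data. The length trend was a lowess curve (fraction 0.3) of log2(CPM + 0.5) deviations. Alternatives were DESeq2 1.42.0, other scalings, level limits and rats left out. No libraries agreed within sampling noise (smallest chi-square per degree of freedom 13.2, WKY replicates 1 and 3).

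The reference tables matched 0 of the identifiers, so 24 gene lists with 420 symbols, the search for 7 promoter motifs and a check of the tissue label by adipocyte markers were not analysed here, and no sequence is printed. P-values weigh a difference between groups against the spread between rats within them. They take the rats as independent, although the labels give no cage.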

Additional observations from a re-analysis of the deposited data

Results flagged for a closer look

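A rat stood apart from the other 5 of its group, by Dixon's gap criterion at the 95% level, in 10 of the 141 sets of 6 values looked at, 129 of which were the 43 genes in 3 groups. Chance gives about 1 in 20. Gene 6 was at 174.1 CPM in SHR-Water replicate 3, where the other rats of the group ran from 84.6 to 104.9. The same rat was at 8.23 CPM for gene 9 (others 3.25 to 5.07) and at 38.8 CPM for gene 27 (others 25.7 to 30.0). Gene 23 was high in SHR-Water replicate 4, at 23.1 CPM against 15.6 to 17.9, and in SHR-TMAO replicate 1, at 15.3 CPM against 9.38 to 11.3, the value that brought it nearest to SHR-Water. In WKY, replicate 2 was high for gene 17 (103.5 CPM, others 42.9 to 56.3) and gene 26 (7.22 CPM, others 4.73 to 5.57), replicate 3 for gene 33 (49.7 CPM, others 25.4 to 33.2) and replicate 6 for gene 36 (48.3 CPM, others 24.5 to 31.6). Gene 41 was low in SHR-TMAO replicate 4, at 918 CPM against 1069 to 1090 in the other rats.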

How the results depend on the processing

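The number of genes lower in every SHR-TMAO rat, 43, was 142 with column totals without mitochondrial genes (41 of the 43 kept), and from 43 to 279 when 1 rat was left out. Leaving out SHR-Water rats gave 279 (replicate 1), 93 (replicate 5) and 65 (replicate 2), and leaving out SHR-TMAO rats gave 274 (replicate 1), 75 (replicate 5) and 66 (replicate 3). With replicate 1 of both groups left out, a setting chosen after seeing the data, it was 1106. With the length trend removed it was 34, of which 13 were among the 43, with TMM 59 (26 kept) and with DESeq2 size factors 57 (25 kept). The WKY mean was above SHR-Water for 8 genes without mitochondrial totals (11 to 20 with 1 rat left out), between the groups for 20 to 30, and below SHR-TMAO for 5 with TMM and 5 by medians (2 to 4). With the length trend removed it was above for 21, between for 18 and below for 4, so that above took the place of between as the commonest position. Genes called between SHR-TMAO and SHR-Water were 403 with DESeq2, 1 with the length offset, 1 in a fit of all rats and 0 to 685 with 1 rat left out (685 when SHR-Water replicate 1 was dropped, 442 and 2 when SHR-TMAO replicate 1 or 2 was). Between SHR-Water and WKY, 798 were called by adjusted p alone, 867 by DESeq2 and 337 to 1278 with 1 rat left out (1278 when WKY replicate 2 was dropped, 725 when SHR-Water replicate 1 was). Between SHR-TMAO and WKY these counts were 995, 804 and 363 to 646. The median log2 fold change of the 43 genes between SHR-TMAO and SHR-Water was -0.34 with the length offset and -0.60 to -0.50 with 1 rat left out. For SHR-TMAO and WKY the latter range was -0.59 to -0.52 and for SHR-Water and WKY 0.03 to 0.16. The cause of these shifts was not tested. The deviations of same-numbered rats correlated at r from -0.33 to 0.03 between SHR-TMAO and SHR-Water, -0.20 to 0.24 between SHR-TMAO and WKY and -0.24 to 0.51 between SHR-Water and WKY, where 5 of 6 were over 0.1. In no comparison were all over 0.1, and 0, 3 and 6 of 12 rats correlated best with their own number, so the rats were taken as unpaired. With the replicate block, 0 of 12852 genes were called in SHR-TMAO against SHR-Water, and so 0 of the 43. In SHR-Water against WKY, 591 of 13017 genes were called (2.27% higher and 2.27% lower), with gene 16 of the 43, as higher. In SHR-TMAO against WKY, 341 of 12833 genes were called (1.15% higher and 1.51% lower), with genes 6 and 37 of the 43, as lower. The medians of the 43 genes were -0.55, 0.10 and -0.55 in the same order. Of the 43 genes, 9 had a lowest SHR count under 20, the smallest being 3, and such genes are limited by depth.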

Other observations

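Of the 47 genes lower in every SHR-TMAO rat, 4 were left out by the rule's exclusions. In 3 of them all WKY rats lay above all SHR. The most abundant (chr8:61532465-61567510) had a mean of 122 CPM in SHR-Water, 80.2 in SHR-TMAO and 236 in WKY, with WKY rats from 186 to 290.4. The others were chr5:48303366-48341642, with 6.97, 5.02 and 13.4 CPM, and chr15:24167486-24199341, with 5.78, 3.94 and 9.17. The gene left out for its chromosome (chr20:44680449-44722872) had 10.2, 6.18 and 15.2 CPM, and its WKY rats, from 8.61 to 22.8, overlapped SHR-Water.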
